A study of Rattus norvegicus with 12 samples.

Results

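Fibronectin 1 (Fn1), Sparc, periostin (Postn) and lysyl oxidase (Lox) encode 4 secreted proteins that build, organise or crosslink the extracellular matrix. Their expression was followed in rat lung across saline, bleomycin and bleomycin plus nintedanib. The genes were taken by identifier: ENSRNOG00000014288 for Fn1, ENSRNOG00000012840 for Sparc, ENSRNOG00000012660 for Postn and ENSRNOG00000014426 for Lox. They are 4 of the 32623 identifiers in the deposited table of counts, and all 4 were among the 14956 genes with enough counts to be tested. The table gives identifiers without gene names, so the pairing of these names with their identifiers was taken as given and was not tested on the data.

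The study gave male Sprague-Dawley rats bleomycin, a drug that injures the lung and is used to produce fibrosis in rodents, and asked what nintedanib, an inhibitor of receptor tyrosine kinases, changes once the injury has begun. The BLM group received bleomycin into the trachea at 1 U/kg on day 0 and day 4, then oral vehicle (0.5% methylcellulose) daily from day 7 for 3 weeks. The NINT group received the same bleomycin and, in place of the vehicle, oral nintedanib at 100 mg/kg over the same weeks. The SAL group received saline into the trachea and the oral vehicle. All animals were killed on day 28, no group received nintedanib without bleomycin, and each group holds 4 rats with 1 library each. Animals given bleomycin were allotted to nintedanib or vehicle at random on day 7, per the labels. RNA came from the homogenised right lung, so a lower level may reflect fewer cells of a type or less RNA per cell, which cannot be told apart in whole tissue. Libraries were made by QuantSeq FWD, which reads near the 3′ end of each transcript, so the splice forms of fibronectin are counted together. The SAL libraries held 16572004 to 18586133 counts each, the BLM libraries 18926664 to 21719946 and the NINT libraries 17697037 to 21343622. The tissue was not checked against lung markers, since no other identifier could be given a name.

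Fibronectin is a glycoprotein that cells stretch into fibrils through integrins, and these fibrils serve as a scaffold on which collagen is laid down. Sparc and periostin are matricellular proteins, which regulate the matrix and its contact with cells more than they bear load; Sparc binds collagen, and periostin binds fibronectin and collagen. Lysyl oxidase is a copper enzyme that oxidises lysines in collagen and elastin, the step from which covalent crosslinks form. All 4 are products of activated fibroblasts in fibrotic tissue, and fibronectin is also made by other lung cells. Which cells the RNA of each of the 4 genes came from was not tested and cannot be told in whole tissue.

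RefSeq windows (GRCr8) from 250 bases before to 50 bases after the gene start were found for 2 of the 4 genes, Sparc and Postn. A stretch before the start of each is shown for that reason, chosen for the motifs it holds, 5′ to 3′ on the strand of the gene. For Sparc it is chr10:40038817-40038916, minus strand, from -100 to -1; for Postn it is chr2:140678005-140678034, plus strand, from -56 to -27. Capitals mark CAGAC, a motif of SMAD factors. They also mark CATTCC, which is the TEAD factors' motif read from the opposite strand, and TATAAA, a core promoter element.
Sparc: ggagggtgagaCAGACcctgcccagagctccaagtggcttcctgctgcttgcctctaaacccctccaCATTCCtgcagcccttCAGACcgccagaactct
Postn: agcccagagctcTATAAAttcagctctcta
In the Sparc window, CAGAC stood at -89 to -85 and at -17 to -13, with a further match on the opposite strand at -225 to -221, and CATTCC at -33 to -28. In the Postn window, TATAAA stood at -44 to -39 and CAGAC at -166 to -162, and the RefSeq gene model of Postn begins 37 bases before this window, so that another start is annotated upstream. Both strands were searched and the matches did not overlap. Of 33469 RefSeq windows of 300 bases, 50.1% held CAGAC on either strand, 14.2% held CATTCC and 14.2% held TATAAA, so CAGAC was common to both genes and to about as many windows as lacked it. TGACTCA (for AP-1, 4.63% of windows), TGACGT (the core of a cAMP response element, 7.94%), GGGCGG (for SP1, 33.1%), CACGTG (the E-box, 6.42%) and the CArG box (1.64%) were searched and have no match in these 2 windows.

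Levels are given as CPM, counts scaled to the size of the library after adjustment by the trimmed mean of M-values (TMM). Fn1, which encodes the scaffold protein, was higher in every animal given bleomycin. It stood at 215, 248, 194 and 219.9 CPM in SAL replicates 1 to 4, at 474, 424, 1505 and 724 CPM in BLM replicates 1 to 4, and at 409, 464, 443 and 519 CPM in NINT replicates 1 to 4. The 8 animals given bleomycin, with or without nintedanib, lay above the 4 saline animals, while BLM and NINT overlapped: the lowest BLM animal, replicate 2, and BLM replicate 1 lay inside the range of NINT. The means were 219 ± 22.2 CPM in SAL, 782 ± 499.6 CPM in BLM and 459 ± 46.2 CPM in NINT (SD, n = 4 each).

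Sparc was at 3751, 3609, 4179.7 and 3738 CPM in SAL replicates 1 to 4, at 4369.7, 3955, 4855 and 5032 CPM in BLM, and at 3426, 3023, 2673.5 and 3468 CPM in NINT, in the same order of replicates. The group means were 3819 ± 249, 4553 ± 487 and 3148 ± 374 CPM (SD, n = 4 each). BLM and SAL overlapped through SAL replicate 3 and BLM replicate 2, and all 4 NINT animals lay below the other 8.

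Postn, the other matricellular gene, was at 149, 143, 141 and 152 CPM in SAL replicates 1 to 4, at 149.9, 135, 163 and 144 CPM in BLM, and at 90.5, 108, 115 and 112 CPM in NINT. The group means were 146 ± 5.25, 148 ± 11.8 and 107 ± 11.0 CPM (SD, n = 4 each). The SAL animals lay within the range of BLM, and again all 4 NINT animals lay below the other 8, with NINT replicate 1 the lowest.

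Lox, the crosslinking enzyme, was at 75.3, 91.0, 136 and 124 CPM in SAL replicates 1 to 4, at 101, 125, 239 and 159 CPM in BLM, and at 80.4, 98.4, 73.5 and 81.5 CPM in NINT. The group means were 107 ± 28.3, 156 ± 60.3 and 83.4 ± 10.6 CPM (SD, n = 4 each). NINT lay below BLM without overlap, but only by the gap between 98.4 and 101 CPM, and both groups overlapped with SAL. The smallest count behind all these values was 1287 reads, for Lox in SAL replicate 1, where counting error alone is 2.79% of the value.

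**Figure D1:**
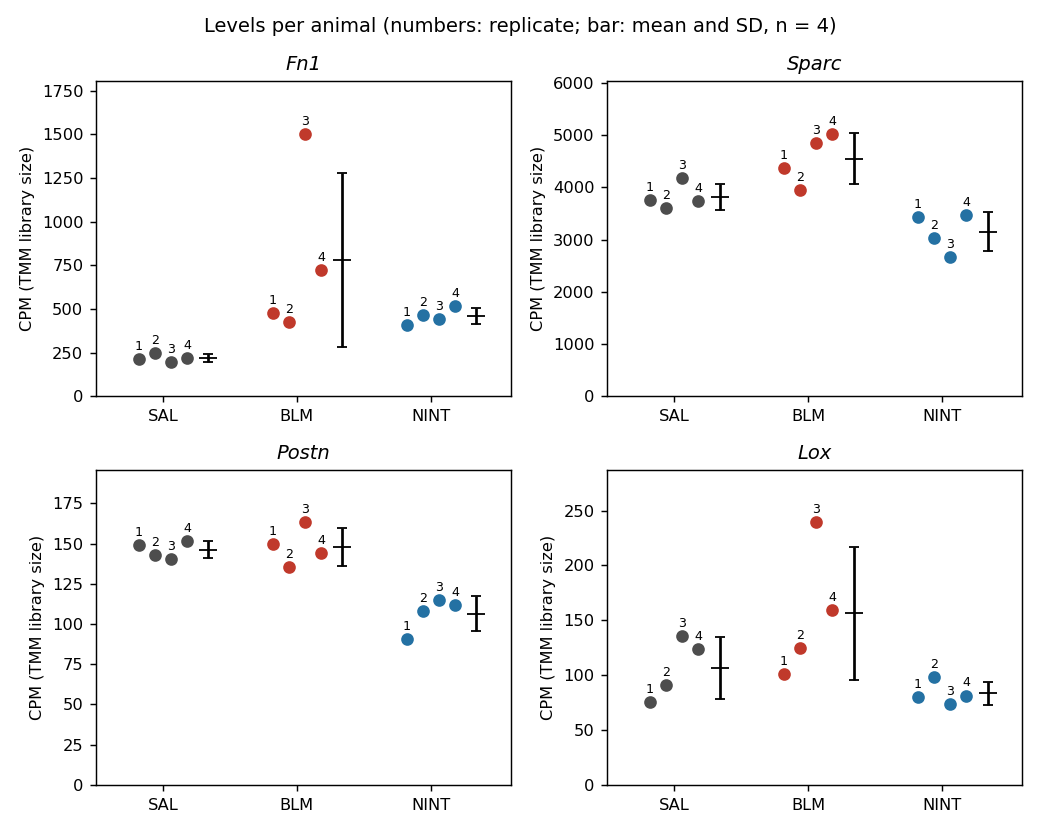
Level of each gene in CPM (vertical axis from 0) for the animals of SAL, BLM and NINT; points are animals with their replicate number, and bars are the mean and SD of 4. Fn1 is above SAL in all 8 animals given bleomycin, and for Sparc and Postn the 4 NINT animals lie below the other 8.

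The spread between animals differed among the genes and the groups. In BLM the SD of log2 CPM was 0.83 for Fn1, larger than that of 91.5% of the genes tested, and 0.53 for Lox, larger than that of 79.2%. It was only 0.16 for Sparc and 0.11 for Postn in the same animals, where the median gene had 0.26. Over the whole library, BLM replicate 3 differed most from replicates 1 and 2. The chi-square of its counts against theirs, divided by its degrees of freedom, was 82.5 and 107, and against replicate 4 it was 51.8. Replicate 4 in turn had 36.5 and 55.5 against replicates 1 and 2, which had 12.97 between them. SAL pairs had 10.01 to 18.4 and NINT pairs 9.42 to 23.1. This measure grows with the number of counts, and BLM replicate 3 held the most. The part of these differences in the values below was not tested. Fn1 in BLM replicate 3 was 6.87 times the SAL mean, against 1.94 to 3.30 times in the other BLM animals. Lox was also highest in BLM replicate 3, at 2.25 times the SAL mean, followed by replicate 4 at 1.49 times, and the same 2 animals held the highest values of Sparc. In NINT the SD of Fn1 was 0.14 and that of Lox 0.18, close to the median gene at 0.17. Lox was the variable gene among saline animals, with an SD of 0.40 that exceeded that of 86.8% of genes, while Postn had one of the smallest spreads in that group (0.052; 6.47% of genes had a smaller one).

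The effect of bleomycin was tested as BLM against SAL with edgeR's quasi-likelihood test on all 12 libraries and Benjamini-Hochberg adjustment over all 14956 genes; the threshold for a call was 0.05 on the adjusted p. Of the 4 genes only Fn1 was called, in a comparison in which 40.8% of all genes were called and 18.3% were called as higher. Fn1 was also the one without overlap between the groups, with all BLM animals above all SAL animals, as for 16.1% of all genes. Fn1 rose by 1.84 on the log2 scale, a 3.57-fold increase (SE 0.32, 95% interval 1.15 to 2.52, edgeR adjusted p = 0.0017) and stood at rank 107 from the highest log2 fold change of all genes. Leaving out BLM replicate 3 gave 1.34 on the log2 scale (edgeR adjusted p = 0.000212), and Fn1 was called in each of the 21 alternative fits.

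The other genes did not pass the test in this comparison. Sparc had a log2 fold change of 0.25 (95% interval 0.027 to 0.48, edgeR adjusted p = 0.0683) and Lox one of 0.55 (95% interval 0.029 to 1.07, edgeR adjusted p = 0.0838). Both were called when SAL replicate 3, BLM replicate 1 or BLM replicate 2 was left out, with log2 fold changes of 0.33, 0.31 and 0.36 for Sparc and 0.72, 0.75 and 0.69 for Lox; without BLM replicate 3 that of Lox was 0.31 (edgeR adjusted p = 0.205). Sparc was also called by DESeq2 (adjusted p = 0.0372) and by edgeR without a filter on low counts (adjusted p = 0.0481). Postn had a log2 fold change of 0.019 (edgeR adjusted p = 0.874), and its 95% interval of -0.17 to 0.21 leaves out a change of the size seen for Fn1. The median of all genes was 0.0019.

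**Figure D2:**
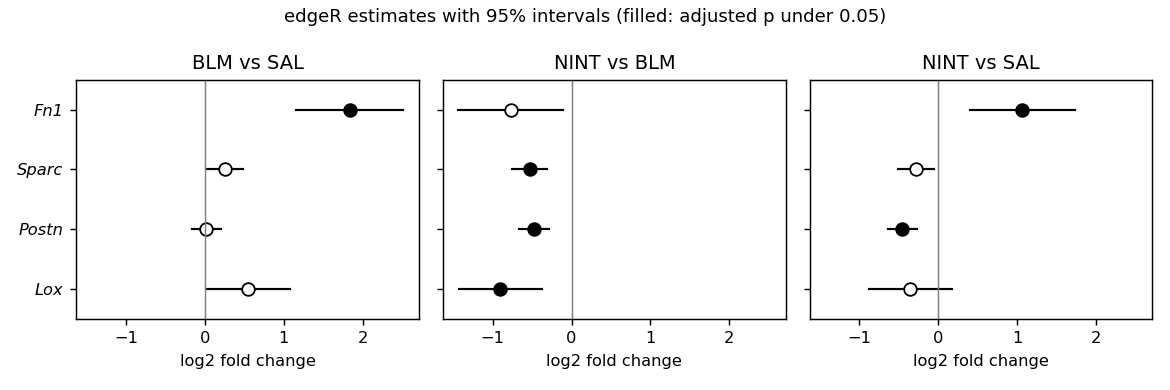
Log2 fold change (horizontal axis) of the 4 genes in each comparison; points are edgeR estimates, lines are 95% intervals, and filled points mark an adjusted p-value under 0.05. Fn1 is filled in both comparisons with SAL, Sparc, Postn and Lox are filled in NINT against BLM, and Postn is also filled in NINT against SAL.

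Nintedanib after bleomycin was tested as NINT against BLM. Sparc, Postn and Lox fell and Fn1 did not pass the test, so 3 of the 4 genes were called as lower where 3.46% of all genes were (5.83% were called in either direction). The 3 genes were also those without overlap between NINT and BLM, a condition that 9.68% of all genes met in the same direction. Sparc fell by 0.53 on the log2 scale, a change of -30.9% (SE 0.10, 95% interval -0.76 to -0.31, edgeR adjusted p = 0.0265). Postn fell by 0.48, a change of -28.1% (SE 0.087, 95% interval -0.66 to -0.29, edgeR adjusted p = 0.0237). Lox had the lowest estimate, -0.90, a change of -46.6%, with a wider error (SE 0.24, 95% interval -1.43 to -0.38, edgeR adjusted p = 0.0479). The estimate for Fn1, -0.77, was lower than those of Sparc and Postn, but its error was the widest of the 4 (SE 0.31). Of all genes tested, 2.21% had a lower log2 fold change than Lox and 3.26% a lower one than Fn1. For Sparc this share was 6.57% and for Postn 8.14%.

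These calls were lost in several fits with fewer animals, and that of Lox also in fits of all 12 libraries. When only the 8 animals of NINT and BLM entered the model, none of the 3 was called (edgeR adjusted p = 0.086 for Sparc, 0.0872 for Postn and 0.103 for Lox), with log2 fold changes of -0.52, -0.46 and -0.90, and only 28 genes of the table were called in that fit. Without NINT replicate 2, where 17 genes of the table were called, Postn lost its call (log2 fold change -0.48, edgeR adjusted p = 0.0796). Sparc lost its call in that fit too (-0.51, edgeR adjusted p = 0.0891). It also lost it without NINT replicate 3 (-0.46, edgeR adjusted p = 0.0676, 79 genes called) or BLM replicate 4 (-0.48, edgeR adjusted p = 0.0517, 198 genes called). With all 12 libraries the log2 fold changes were -0.48 for Postn and -0.53 for Sparc, and 872 genes were called. Lox kept its call in only 2 of the 12 fits that left out 1 animal, those without BLM replicate 1 or BLM replicate 2. Without BLM replicate 3 its log2 fold change was -0.61. With all 12 libraries Lox was not called by limma voom, with DESeq2-type size factors, with robust estimation or with a replicate block. In all, Lox was called in 6 of the 21 alternative fits.

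Fn1 in NINT against BLM had a log2 fold change of -0.77 (95% interval -1.43 to -0.10, edgeR adjusted p = 0.13). This value rested on BLM replicate 3, without which it was -0.23 (edgeR adjusted p = 0.416). Fn1 was called only without BLM replicate 2, the BLM animal with the least Fn1 (log2 fold change -0.97, edgeR adjusted p = 0.035).

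What differed from saline under nintedanib was tested as NINT against SAL, where 9.30% of all genes were called, 4.25% as higher and 5.05% as lower. Here Fn1 and Postn were called in opposite directions. Fn1 was higher in NINT by 1.07 on the log2 scale, 2.09-fold (SE 0.31, 95% interval 0.40 to 1.74, edgeR adjusted p = 0.0484), with all 4 NINT animals above all 4 SAL animals (as for 10.6% of all genes), and stood at rank 206 from the highest of 14956 genes. Its call was close to the threshold in the fit of all 12 libraries: it was lost in 9 of the 12 fits without 1 animal and held only without BLM replicate 1, 2 or 3. When only NINT and SAL animals entered the model, without the variable BLM group, Fn1 had a log2 fold change of 1.11 (edgeR adjusted p = 7.65e-05).

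Postn was lower in NINT than in SAL by a log2 fold change of -0.46, a change of -27.1% (SE 0.087, 95% interval -0.64 to -0.27, edgeR adjusted p = 0.00737). It was called in 20 of the 21 alternative fits and missed the threshold without SAL replicate 4 (-0.37, edgeR adjusted p = 0.054). Sparc had a log2 fold change of -0.28 (95% interval -0.51 to -0.053, edgeR adjusted p = 0.106) and Lox one of -0.35 (95% interval -0.88 to 0.17, edgeR adjusted p = 0.352), and neither was called in any of the 21 alternative fits. For Sparc the 4 NINT animals nevertheless lay below the 4 SAL animals, as was the case for 17.8% of all genes.

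Postn was thus called as lower in NINT than in both other groups, 1 of 33 such genes in the table (0.221%); both comparisons use the same NINT animals. All NINT animals lay below all SAL and BLM animals for 188 genes (1.26%), Sparc and Postn among them. The 4 genes therefore differed in where NINT stood: for Fn1 above SAL and overlapping BLM, for Lox below BLM and overlapping SAL, and for Sparc and Postn outside the range of both.

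**Figure D3:**
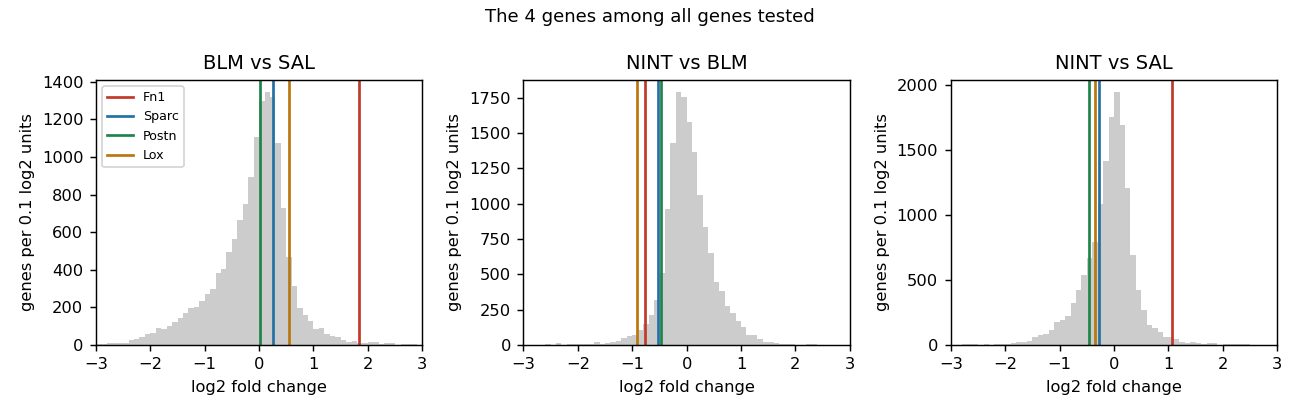
Number of genes per 0.1 log2 units (grey bars) against log2 fold change in each comparison, shown from -3 to 3, with lines for the 4 genes. Fn1 lies in the upper tail in both comparisons with SAL, and all 4 lines lie below 0 in NINT against BLM.

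Ratios of counts between 2 genes of the same library do not depend on how libraries are scaled. Their size also reflects how well each 3′ end is primed and mapped, so only their differences between groups were read, as a description without a test. The ratio of Fn1 to Postn was 1.38 to 1.74 in the SAL animals, 3.14 to 9.22 in the BLM animals and 3.85 to 4.64 in the NINT animals. That of Fn1 to Sparc was 0.0464 to 0.0687 with saline, 0.107 to 0.31 with bleomycin and 0.119 to 0.166 with nintedanib added. Neither ratio overlapped between SAL and the animals given bleomycin, and both overlapped between BLM and NINT.

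The mean log2 ratio of Fn1 to Postn differed by -0.10 and that of Fn1 to Sparc by -0.047 between NINT and BLM, against 1.63 and 1.40 between BLM and SAL. The sign of these small differences depended on single animals: without BLM replicate 3 they were 0.23 and 0.30, and without NINT replicate 1 that of Fn1 to Sparc was 0.050. Without BLM replicate 3 the differences between BLM and SAL were 1.30 and 1.05. Relative to Lox, Fn1 was also higher in BLM and in NINT than in SAL without overlap, by 1.13 and 1.39 on the log2 scale. The ratios among Sparc, Postn and Lox overlapped between all 3 groups, and that of Sparc to Postn spanned 24.6 to 29.7 among SAL animals, 29.2 to 35.0 among BLM animals and 23.2 to 37.9 among NINT animals. The ratios that separated SAL from both groups given bleomycin were the 3 that contain Fn1. Fn1 alone also lay above SAL in all animals given bleomycin, so these ratios are not separate evidence of that difference.

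**Figure D4:**
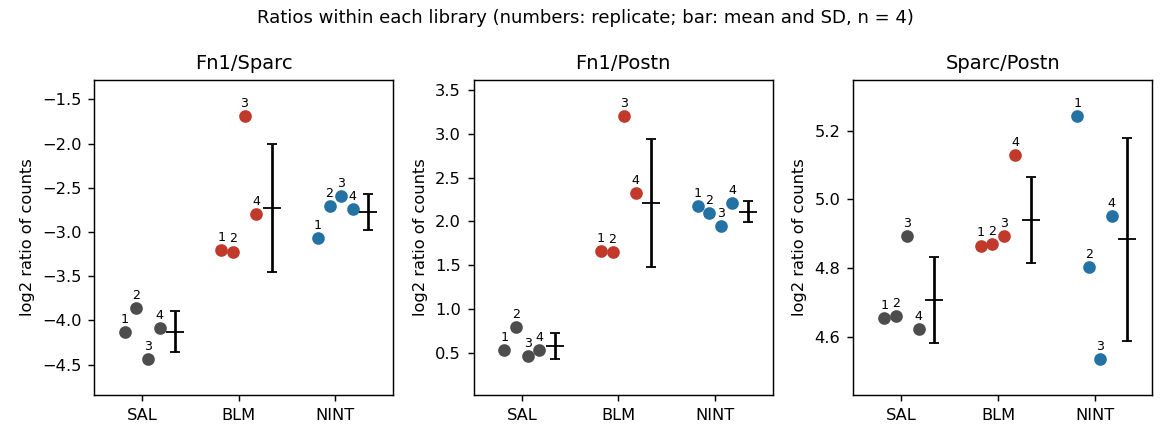
Log2 ratio of counts within each library (vertical axis, which does not start at 0) for Fn1 to Sparc, Fn1 to Postn and Sparc to Postn; points are animals with their replicate number, and bars are the mean and SD of 4. Both ratios with Fn1 are higher in all BLM and NINT animals than in SAL, and the ratio of Sparc to Postn overlaps between the groups.

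Likeness of pattern was measured as Pearson's r of log2 CPM over the 12 libraries, which fall into 3 groups, among 10813 other genes with a mean of at least 5 CPM in 1 group. Fn1 had 265 genes with r over 0.9, Sparc and Lox 22 each, and Postn 2. The genes most like Fn1 and Lox were ENSRNOG00000055068 (r = 0.99) and ENSRNOG00000011758 (r = 0.97), and with BLM replicate 3 left out these values were 0.98 and 0.94. Pearson's r does not measure the size of a change. ENSRNOG00000055068 had log2 fold changes of 0.48 in BLM against SAL and 0.25 in NINT against SAL, where Fn1 had 1.84 and 1.07. In NINT against BLM, ENSRNOG00000011758 had -0.64, where Lox had -0.90. The highest r was 0.96 for Sparc and 0.93 for Postn. On deviations from the group means, the gene most like each had r of 0.98 for Fn1, 0.91 for Sparc, 0.94 for Lox and only 0.59 for Postn. None of the 4 genes was among the 3 genes most like another of them. Which pair of the 4 was closest depended on how r was taken. Over the libraries as they stand it was Sparc and Lox (r = 0.77; 0.74 without BLM replicate 3), and on deviations from the group means this pair had 0.48. Between Fn1 and Lox r was 0.53, but 0.069 without BLM replicate 3 and 0.67 on deviations from the group means, the highest of the 6 pairs on that measure. Between Fn1 and Postn it was 0.016, with -0.39 without BLM replicate 3 and 0.56 on deviations from the group means. The values on deviations from the group means include BLM replicate 3 and were not taken without it. How far they rest on that animal was not tested.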

How the data were processed

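The authors deposited raw counts, whole numbers of reads per Ensembl gene identifier, from QuantSeq FWD libraries. The submitters' processing notes name FastQC, STAR, HTSeq and the build rn6; versions, options, annotation and strand setting are not given in the sources used here, so overlapping genes could share reads. Columns were matched to animals by name, and 7 empty columns were not used. Counts were analysed in R 4.3.3 with edgeR 4.0.16: filterByExpr (minimum count 10, minimum total count 15) over the 3 groups, TMM factors, and glmQLFit and glmQLFTest on all 12 libraries with 1 coefficient per group. Standard errors were back-calculated as the absolute log2 fold change divided by the square root of the quasi-likelihood F statistic. The 95% intervals (for single genes, not adjusted over genes) used these errors and the t distribution. Log2 CPM used a prior count of 2. Alternatives were DESeq2 1.42.0, limma voom (limma 3.58.1), other scaling and filters, fits of 2 groups, a replicate block and fits without 1 animal. Libraries of 1 group differed by more than sampling noise (chi-square divided by its degrees of freedom, 9.42 to 107). The genes and lists were chosen with earlier results of these data known. Named are the 4 genes and, by identifier, the gene most like Fn1 and Lox out of the 3 most like each gene. None of the 32623 identifiers matched the reference tables (0 matched), so the 7 lists of matrix genes and 15 lists of cell type markers (194 genes) were not run. A position of NINT between SAL and BLM was planned and left out, since both differences share the SAL animals.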

Additional observations from a re-analysis of the deposited data

How the results depend on the processing

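Fits that left out an animal of the group outside the comparison, and ratios between genes without 1 animal, were chosen after seeing the data. Fn1 in BLM against SAL was called in all 21 alternatives. Other than in fits without 1 animal, these calls changed. Sparc in BLM against SAL was called by DESeq2 (log2 fold change 0.26) and without a filter (0.31). Lox in NINT against BLM was not called by limma voom (-0.84), with DESeq2-type size factors (-0.89), with robust estimation (-0.90) or in a fit of the 2 groups (-0.90), nor were Sparc (-0.52) and Postn (-0.46) in that fit. Fn1 in NINT against SAL was not called with library size alone (1.02) or robust estimation (1.07). Postn in BLM against SAL, not called in any fit, changed sign with library size alone (-0.017).

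Without 1 animal, log2 fold changes in BLM against SAL ranged from 1.34 to 2.08 for Fn1, 0.21 to 0.36 for Sparc, 0.010 to 0.11 for Postn and 0.31 to 0.75 for Lox. In NINT against BLM they ranged from -0.97 to -0.23 for Fn1, -0.59 to -0.46 for Sparc, -0.52 to -0.41 for Postn and -1.05 to -0.61 for Lox. In NINT against SAL they ranged from 1.00 to 1.19 for Fn1, -0.33 to -0.19 for Sparc, -0.49 to -0.37 for Postn and -0.44 to -0.17 for Lox. Genes called numbered 6098 in BLM against SAL (4880 to 7092 without 1 animal), 872 in NINT against BLM (17 to 2857) and 1391 in NINT against SAL (675 to 3344). DESeq2 called 1960 and 2295 in the latter 2 comparisons, and fits of the 2 groups 28 and 4248. The cause was not tested.

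Same-numbered animals of different groups are not stated to be paired. Their deviations from group means correlated at -0.17 to 0.20, over 0.1 in 1 of 12 pairs. Animals with different numbers had -0.16 to 0.18, over 0.1 in 7 of 36 pairs. Whether a shared number marks a shared batch was not tested. With the replicate block 370 genes were called in NINT against BLM, Lox there (-0.82, edgeR adjusted p = 0.0579) and Fn1 in NINT against SAL (1.05, edgeR adjusted p = 0.0641) were not called, and no other call of the 4 genes changed.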
